A study of Mus musculus with 10 samples.

Results

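Astrocytes and the neural stem cells of the adult brain share a set of abundant transcripts, and 10 such identity genes were followed in RNA pulled down with the RNA-binding protein MEX3A: Apoe, Pla2g7, Aqp4, Atp1b2, Glul, Fabp7, Vim, Gfap, Clu and Sparcl1. They were taken by gene symbol from a matrix of 15899 genes, in which 7 of the 10 were found. Gfap, Clu and Sparcl1 were not analysed here. The libraries come from RNA immunoprecipitation and sequencing (RIP-seq) with an anti-FLAG antibody in neurosphere cultures, which are floating aggregates of neural stem cells from the subependymal zone of the brain of 10-week-old mice, grown with EGF and FGF. FLAG cultures were homozygous for Mex3aFLAG/FLAG, a knock-in that adds a FLAG epitope to the C-terminal end of the endogenous MEX3A protein, and wild-type (WT) cultures of the same background carried no tag and give the nonspecific background of the antibody. In crosslinked pulldowns the cells were fixed with formaldehyde before lysis (2 FLAG and 2 WT libraries), and in native pulldowns they were lysed without fixation (3 FLAG and 3 WT libraries). The study's methods call the replicates biological, and the labels do not say whether they came from separate mice. Input RNA was not analysed here, so more of an RNA in the FLAG pulldown and more of it in the FLAG cultures cannot be told apart, nor can fewer cells of a type and less RNA per cell.

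MEX3A belongs to a family of KH domain proteins that bind mRNA, mostly in the 3' untranslated region (3' UTR), and act on its translation and decay. Adult neural stem cells are derived from radial glia and keep an astrocyte-like program, with lipid carriers, water and ion transport proteins, glutamine synthesis and an intermediate filament skeleton. That program is turned down when the cells produce neuroblasts. Such genes are therefore of interest where an RNA-binding protein of the neurogenic lineage is pulled down together with its RNAs.

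The short sequence that the MEX-3 protein of the nematode recognises, the MEX-3 recognition element, has a first part of 4 bases (A, G or T, then G or T, then AG), 0 to 8 bases of any kind, and a second part of 4 bases (T, then A, C or T, then TA). It was searched on the mRNA strand of the longest 3' UTR annotated among the coding transcripts of each gene. The stretches below show what a match looks like in 4 of the genes. Each is a run of the GRCm38 genome written 5' to 3' along the mRNA, with 5 bases on each side, and the capitals mark the 2 parts.
Fabp7: tggagGTAGaaaatTATAattct
Vim: aagacGTAGaaaaggTTTAcaaaa
Glul: gatttGTAGggttTCTAacttt
Atp1b2: taaacTGAGagcgatTATAtatat
The Fabp7 match lies at chr10:57788276-57788288 (plus strand) and the Vim match at chr2:13582680-13582693 (plus strand), and each was the single match in a short 3' UTR (277 bases in Fabp7 and 342 in Vim). The Glul match, at chr1:153909289-153909300 (plus strand), is 1 of 7 in a 3' UTR of 1541 bases. The Atp1b2 match, at chr11:69599753-69599766 (minus strand), is also 1 of 7, in a 3' UTR of 1512 bases, and it ends 17 bases before the end of the transcript. Some of the 7 matches in Glul and in Atp1b2 overlap one another. Aqp4 had 8 matches in its 3955 bases. In Apoe (271 bases) and Pla2g7 (222 bases) these letters were not found.

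A match was thus found in 5 of the 7 genes. These letters are frequent: among coding genes with a 3' UTR of like length (within 20%), a match was held by 99.7% for Aqp4, 94.2% for Glul, 93.9% for Atp1b2, 44.4% for Vim and 39.6% for Fabp7. For the genes without a match the shares were 38.9% (Apoe) and 33.0% (Pla2g7). Where the second part was written with its last 2 bases exchanged (T, then A, C or T, then AT), Fabp7 had 3 matches, Aqp4 11, Glul 6 and Atp1b2 4, and Vim had none. A match of letters is a description of the sequence and does not show that MEX3A is bound there.

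The matrix holds log2 values that the authors had normalized between libraries, so values compare 1 gene across libraries, and the number of reads behind a value is unknown. Raised from the log2 scale, each library adds up to between 949427 and 949437. FLAG native replicates 1 and 3 stood apart at the low end: 329 and 178 genes shared the lowest value of these libraries, against at most 3 genes in each of the others. The changes of the 7 genes are also given without these 2 libraries, per gene for native FLAG over WT and otherwise as a median and range, while values of other genes and lists, native levels per kb and correlations include them. Mex3a itself, the tagged gene, did not overlap between FLAG and WT in either protocol, with log2 values of 3.92 and 4.16 against 2.75 and 3.03 after crosslinking, and of 5.95, 4.03 and 6.10 against 3.33, 3.52 and 2.89 in native pulldowns. Over all libraries its log2 fold change came to 1.73 (limma adjusted p = 0.0789), and FLAG native replicate 2 alone exceeded the native WT mean by 0.78. Of 13 markers of neural stem cells and astrocytes 10 were found, and 7 of these are the identity genes themselves. The others, Nes, Slc1a3 and Prom1, had log2 fold changes of 0.52, -0.44 and -0.35 over all libraries. The summed linear value of the 10 was 869 to 878 in FLAG and 663 to 913 in WT after crosslinking. In native pulldowns it was 847 to 1890 in FLAG and 848 to 1190 in WT, so the sums overlapped in both protocols. Of markers of other cells of the region, 4 of 5 neuronal and 4 of 6 endothelial genes were found in the matrix. Fewer were found of the microglial (3 of 9), oligodendrocyte (2 of 6), neuroblast (1 of 6) and ependymal (1 of 6) genes.

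To ask which RNAs come down with the tagged protein, limma compared FLAG with WT after crosslinking, in native pulldowns, and over all 10 libraries in a fit that included the protocol. Genes counted as called when the adjusted p-value was under 0.05 and FLAG and WT differed by over 0.58 on the log2 scale (1.5-fold). All 7 identity genes had a log2 fold change above 0.58 in both protocols, where 4.16% of all genes did. Without FLAG crosslinked replicate 2, or without WT crosslinked replicate 1, 4 of the 7 did so after crosslinking, and with 8 added to the linear values before the logarithm, 3 did so after crosslinking and 6 in native pulldowns. Only Pla2g7 was called over all libraries, where 0.264% of all genes were called higher. With libraries of the same genotype and replicate number as a random block, 0 of the 7 were called, and 7 of all genes were called higher (42 without the block). Within either protocol alone limma called 0 of the 7, beside 0% of all genes called higher in each and 0.107% called lower in native pulldowns. At an unadjusted p under 0.05 with the same fold change limit the counts were 6 of 7 after crosslinking (2.78% of all genes), 6 of 7 in native pulldowns (7.77%) and 7 of 7 over all libraries (7.24%). The median log2 fold change of the 7 was 0.75, 1.27 and 1.01 in the crosslinked, native and all libraries, against -0.02, -0.04 and -0.03 for all genes. Apoe, Pla2g7, Aqp4, Atp1b2 and Glul stand on the study's list of enriched RNAs, which was chosen on these same libraries, so their direction is not independent of that choice. Fabp7 and Vim do not, but all 7 were chosen with earlier results of these data known, so none is independent of these libraries.

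**Figure D1:**
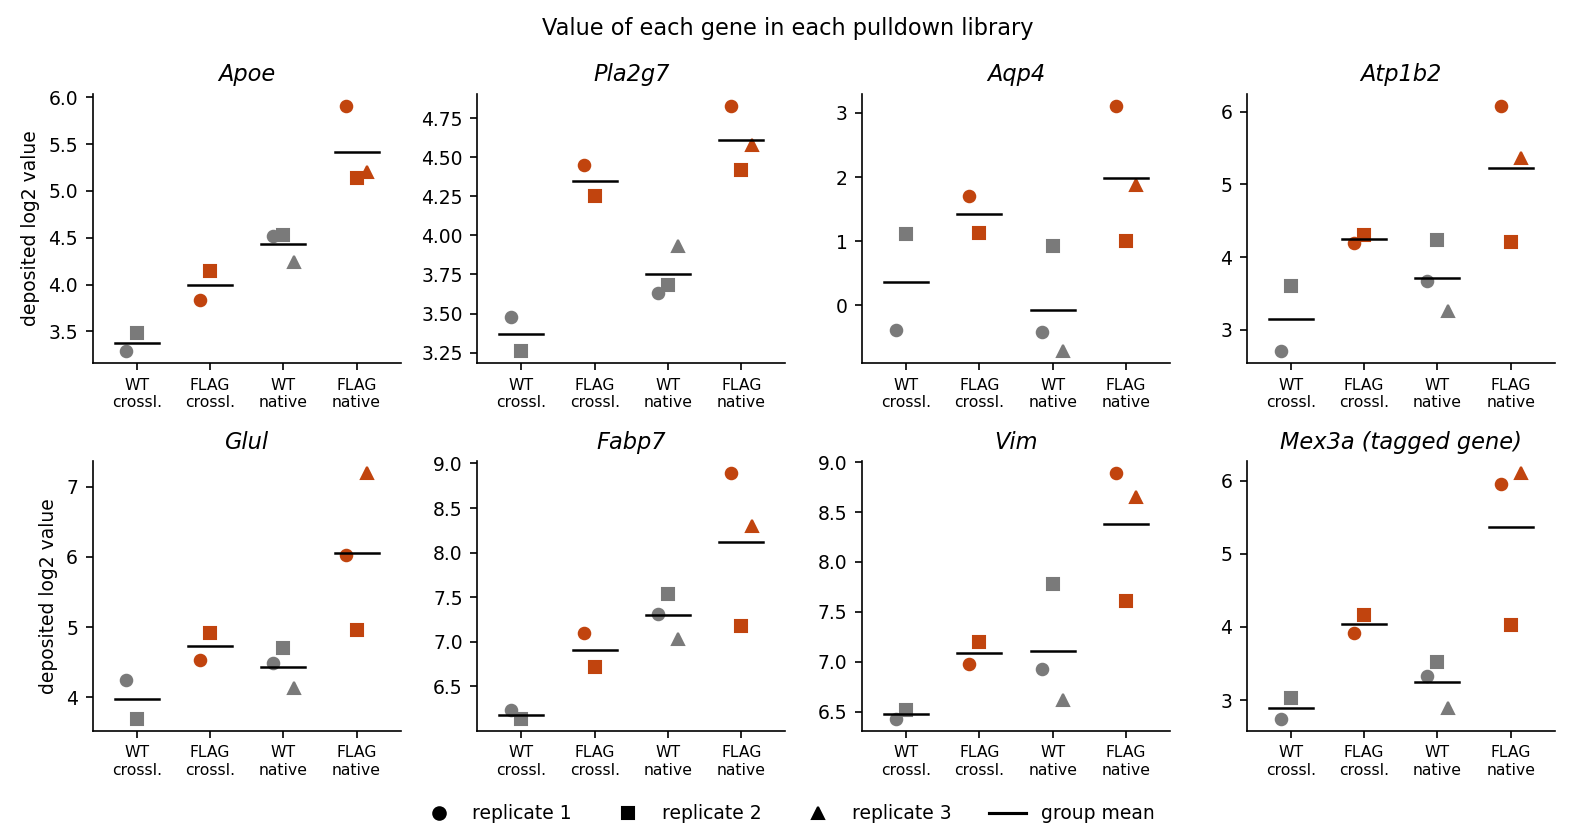
Deposited log2 value of each identity gene and of Mex3a in each library (vertical axis, a scale of its own per gene) by group (horizontal axis), with grey symbols for WT, orange symbols for FLAG, the symbol shape for the replicate number and a line for the group mean. The FLAG symbols lie above the WT symbols in each crosslinked panel, while in native pulldowns the FLAG square (replicate 2) of Atp1b2, Fabp7 and Vim lies below the WT square.

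After crosslinking the FLAG libraries all exceeded the WT libraries for each of the 7 genes, which was the case for 19.1% of all genes. In native pulldowns this held for Apoe, Pla2g7, Aqp4 and Glul, 4 of the 7, against 8.62% of all genes. The same 4 were separated in both protocols, against 4.84% of all genes. Leaving out FLAG libraries cannot undo a separation, so it was fixed in advance that these 4 stayed separated without FLAG native replicates 1 and 3. In native pulldowns 22.9% of all genes were then separated. When every library was first corrected for the share of each gene that is exonic, Aqp4 was no longer separated after crosslinking, and Apoe, Pla2g7, Atp1b2, Glul and Vim were separated in both protocols (5.47% of all genes). For Atp1b2, Fabp7 and Vim, FLAG native replicate 2 lay within the range of the WT libraries.

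The secreted lipid proteins came first in this order of roles. Apoe encodes apolipoprotein E, the main lipid carrier released by astrocytes, and lies on chromosome 7 (19696109 to 19699188, minus strand). Its log2 values after crosslinking were 3.84 and 4.14 in FLAG and 3.29 and 3.48 in WT. In native pulldowns they were 5.91, 5.14 and 5.20 in FLAG and 4.52, 4.53 and 4.24 in WT. The groups did not overlap in either protocol, and both native groups were above both crosslinked groups. FLAG exceeded WT by a log2 fold change of 0.61 ± 0.15 (SE) after crosslinking, 0.99 ± 0.24 in native pulldowns and 0.84 ± 0.17 over all libraries, with a limma adjusted p of 0.0657 for the last.

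Pla2g7 encodes a secreted phospholipase that breaks down platelet activating factor and oxidised phospholipids (chromosome 17, 43568098 to 43612201, plus strand). Its log2 values were 4.45 and 4.25 in FLAG against 3.48 and 3.26 in WT after crosslinking. Without crosslinking they were 4.83, 4.42 and 4.58 against 3.63, 3.68 and 3.93. This was the tightest of the 7 genes in native FLAG libraries, with an SD of 0.21, and the groups were separated by at least 0.49. Pla2g7 rose by 0.91 ± 0.12 on the log2 scale over all libraries, or 1.88-fold (limma adjusted p = 0.0169), with 0.98 after crosslinking and 0.86 in native pulldowns. With libraries of the same genotype and replicate number as a random block the fold change was 0.89 and the call was lost (adjusted p = 0.0543). The call was also lost when FLAG crosslinked replicate 2 (adjusted p = 0.0754), WT crosslinked replicate 1 (0.0569), WT native replicate 1 (0.0787) or WT native replicate 2 (0.0636) was left out, while the fold change stayed between 0.85 and 0.97 over the 10 libraries left out in turn. The exons of Pla2g7 share 319 bases with the antisense gene 1700071M16Rik, whose log2 fold change over all libraries was 0.96 (adjusted p = 0.0508). How the authors' counting used strand is not given in the sources used here, so reads of the shared bases cannot be told apart.

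The transport proteins of the membrane followed. Aqp4 encodes the water channel of astrocyte endfeet. After crosslinking its log2 values were 1.71 and 1.13 in FLAG and -0.38 and 1.12 in WT. In native pulldowns the values were 3.11, 1.00 and 1.87 in FLAG and -0.41, 0.92 and -0.71 in WT. The groups came within 0.01 of each other after crosslinking and within 0.08 in native pulldowns, each time through WT replicate 2. Over all libraries the log2 fold change was the largest of the 7 (1.66 ± 0.49, or 3.15-fold) and above that of 99.2% of all genes, but it did not pass (adjusted p = 0.129). After crosslinking it was 1.05 with all libraries, 0.30 without WT replicate 1 and 1.79 without WT replicate 2. At this low level a constant added before the logarithm matters. With 1 added the fold change of Aqp4 over all libraries was 1.06, and Atp1b2 was the highest of the 7 at 1.26. With 8 added that of Aqp4 was 0.35, the lowest of the 7.

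Atp1b2 encodes the beta-2 subunit of the sodium and potassium pump, which is also an adhesion molecule of glia (chromosome 11, 69599736 to 69605942, minus strand). Its log2 values were 4.20 and 4.30 in FLAG and 2.71 and 3.60 in WT after crosslinking. In native pulldowns they were 6.08, 4.21 and 5.36 in FLAG and 3.67, 4.23 and 3.26 in WT. The native groups overlapped narrowly, since FLAG replicate 2 lay just under WT replicate 2. The log2 fold change was 1.09 ± 0.32 after crosslinking, 1.50 ± 0.45 in native pulldowns and 1.34 ± 0.33 over all libraries (adjusted p = 0.0960). Without WT crosslinked replicate 1 the crosslinked value was 0.65.

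Glul encodes glutamine synthetase, which converts the glutamate taken up by astrocytes (chromosome 1, 153899944 to 153909723, plus strand). Its log2 values were 4.53 and 4.92 in FLAG and 4.25 and 3.70 in WT after crosslinking. In native pulldowns FLAG replicate 3 reached 7.19, beside 6.03 and 4.96 in replicates 1 and 2, and WT had 4.49, 4.71 and 4.13. The groups did not overlap, but the FLAG native libraries spread over more than 2 units. The log2 fold change was 0.75 ± 0.25, 1.62 ± 0.48 and 1.27 ± 0.36 in the crosslinked, native and all libraries (adjusted p = 0.122 for the last). It was 0.47 after crosslinking without WT replicate 2, and 1.06 in native pulldowns without FLAG replicate 3. Its longest transcript shares 7.91% of its 75-base windows with other annotated genes, among them the opposite-strand gene Teddm2 (log2 fold change 0.93, adjusted p = 0.361), and reads of these stretches cannot be told apart.

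Fabp7 encodes the brain lipid binding protein of radial glia (chromosome 10, 57784881 to 57788450, plus strand). Its log2 values were 7.10 and 6.72 in FLAG and 6.23 and 6.14 in WT after crosslinking. In native pulldowns they were 8.89, 7.18 and 8.30 in FLAG and 7.31, 7.54 and 7.03 in WT. FLAG native replicate 2 was below WT native replicates 1 and 2. The log2 fold change was 0.73 ± 0.16 after crosslinking, 0.83 ± 0.38 in native pulldowns and 0.79 ± 0.27 over all libraries, the smallest of the 7 (adjusted p = 0.157). The native value was 0.44 without FLAG replicate 1 and 1.30 without FLAG replicate 2.

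Vim encodes vimentin, the intermediate filament protein of stem cells and immature astrocytes (chromosome 2, 13573927 to 13582826, plus strand). Its log2 values were 6.98 and 7.20 in FLAG and 6.43 and 6.52 in WT after crosslinking. In native pulldowns they were 8.89, 7.61 and 8.65 in FLAG and 6.93, 7.78 and 6.62 in WT. FLAG native replicate 2 again lay under WT native replicate 2. The log2 fold change was 0.61 ± 0.11, 1.27 ± 0.38 and 1.01 ± 0.28 in the crosslinked, native and all libraries (adjusted p = 0.118 for the last).

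**Figure D2:**
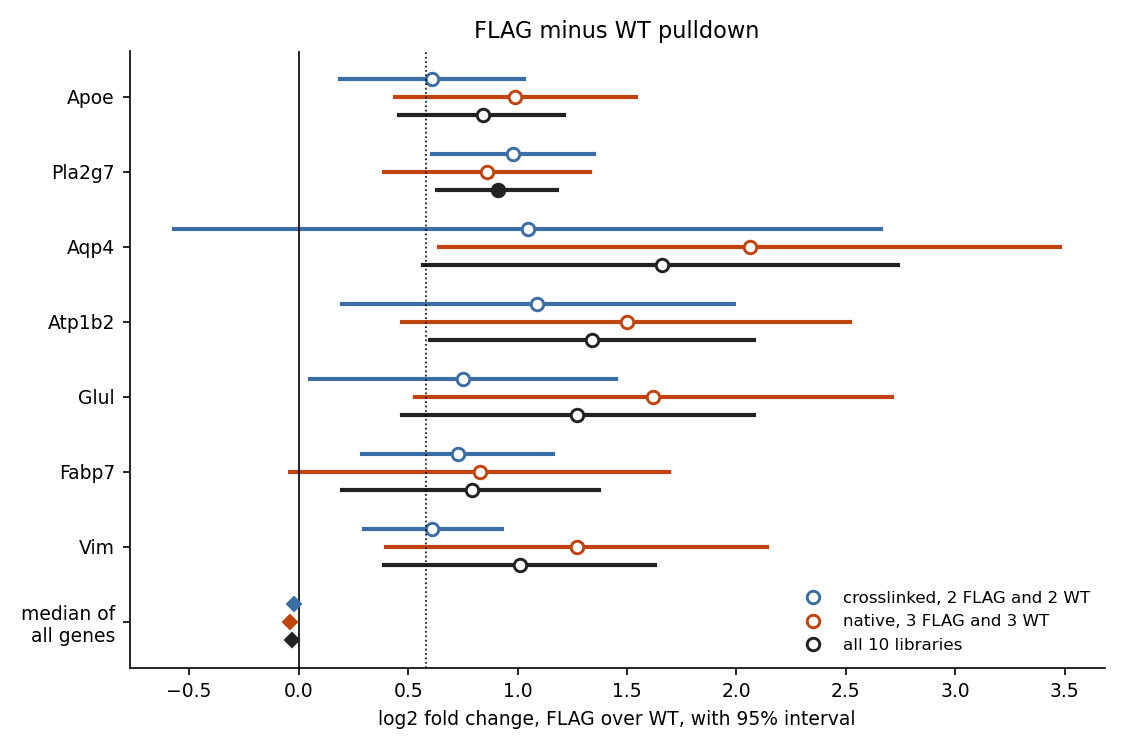
Log2 fold change of FLAG over WT (horizontal axis) with its 95% interval for each gene in the crosslinked libraries (blue), the native libraries (orange) and all 10 libraries (black), with filled points for called genes, a dotted line at 0.58 and diamonds for the median of all genes. All points lie right of the dotted line, and Pla2g7 over all libraries, at 0.91, is the filled one.

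The size of the native difference depended on which FLAG libraries were read. Taken against the mean of the WT libraries of its protocol, the median of the 7 genes was 0.91 and 0.76 in the FLAG crosslinked libraries. In FLAG native replicates 1, 2 and 3 it was 1.60, 0.52 and 1.54. WT native replicate 2 stood at 0.41, close to FLAG native replicate 2, while the other WT libraries lay between -0.48 and 0.09. Without FLAG native replicate 2, all 7 genes were called in the native libraries, where the median log2 fold change was then 1.66, and 6 were called over all libraries (all but Aqp4). However, of all genes 1450 were then called higher in the native libraries, against 0 with the library included, and 516 over all libraries, against 42. Without FLAG native replicates 1 and 3, the pair with most genes at their lowest value, the median native log2 fold change was 0.52, and 3 of the 7 exceeded 0.58. The native values in that setting were 1.07 for Aqp4, 0.71 for Apoe, 0.67 for Pla2g7, 0.52 for Glul, 0.50 for Vim, 0.49 for Atp1b2 and -0.12 for Fabp7. Over all libraries the median was then 0.65, the highest value was 1.06 (Aqp4), 5 of the 7 exceeded 0.58 (all but Vim at 0.56 and Fabp7 at 0.36) and 0 were called.

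**Figure D3:**
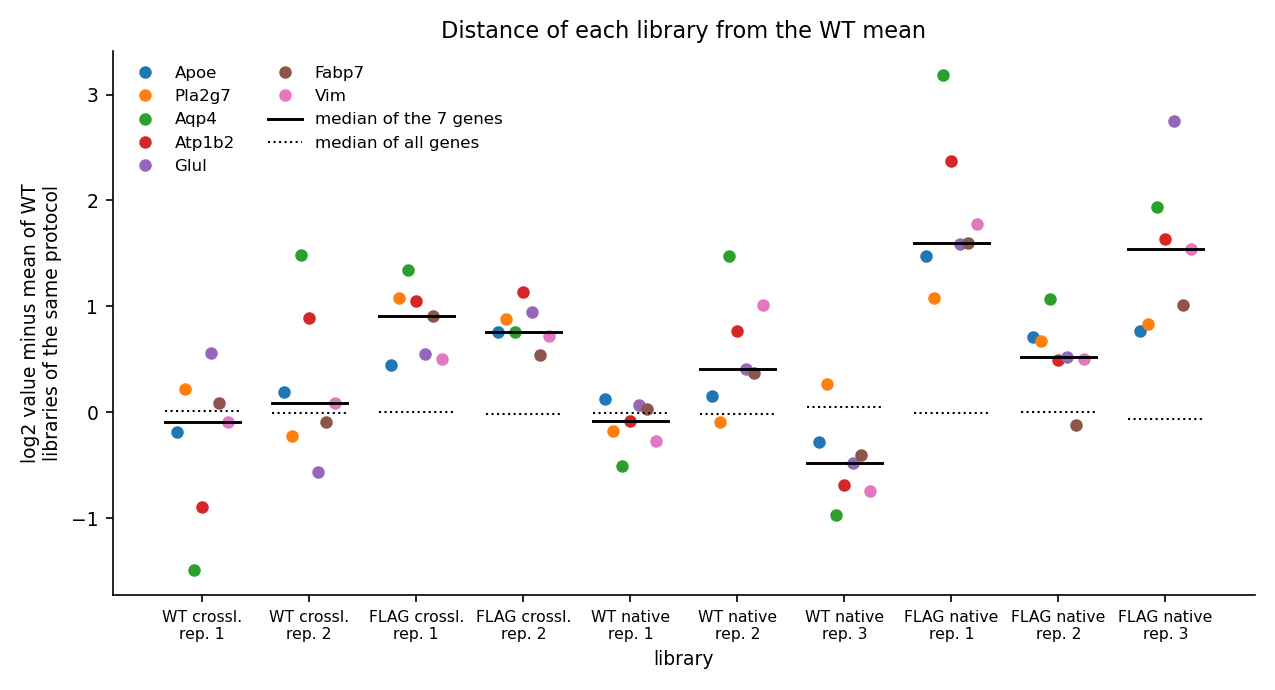
Log2 value of each gene minus the mean of the WT libraries of the same protocol (vertical axis) for each library (horizontal axis), with coloured points for genes, a solid line for the median of the 7 genes and a dotted line for the median of all genes. FLAG native replicates 1 and 3 sit highest, with medians of 1.60 and 1.54, and the dotted lines stay near 0 in every library.

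The difference between the protocols in the FLAG over WT change was tested in 1 fit of the 4 groups. It was -0.12 for Pla2g7 (95% interval -0.72 to 0.48), 0.10 for Fabp7 (-1.17 to 1.37), 0.38 for Apoe (-0.40 to 1.16), 0.40 for Atp1b2 (-1.17 to 1.98), 0.66 for Vim (-0.60 to 1.91), 0.87 for Glul (-0.76 to 2.50) and 1.01 for Aqp4 (-1.22 to 3.25), as native minus crosslinked on the log2 scale. limma called none of the 7, and 0% of all genes, and 0 of the 7 had an unadjusted p under 0.05, beside 0.233% of all genes in the higher and 0.195% in the lower direction. The median of the 7 was 0.40, but -0.23 without FLAG native replicates 1 and 3, where the values ran from -0.84 (Fabp7) to 0.11 (Apoe), and 0.91 without FLAG native replicate 2. Over the libraries left out in turn the difference for Aqp4 ranged from 0.27 (without WT crosslinked replicate 2) to 1.76 (without WT crosslinked replicate 1). For Glul it ranged from 0.31 (without FLAG native replicate 3) to 1.42 (without FLAG native replicate 2). It crossed 0 for Fabp7 (-0.28 to 0.58) and Atp1b2 (-0.04 to 0.91). For Apoe (0.13 to 0.53), Vim (0.41 to 1.05) and Pla2g7 (-0.23 to -0.01) it did not. The intervals are wide, so that differences of more than 1 log2 unit are within reach for all genes but Pla2g7.

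Crosslinked and native pulldowns were also compared within each genotype. In FLAG libraries the 7 genes all had lower values after crosslinking than in native pulldowns, as 40.9% of all genes did, with a median log2 difference of -1.22, against 0.11 for all genes. Apoe fell by 1.43 (limma adjusted p = 0.0495) and was the only one called lower, where 0.396% of all genes were. Glul (-1.34), Vim (-1.30) and Fabp7 (-1.22) were lower at an unadjusted p under 0.05 and a log2 difference past 0.58. These genes were not called, and with Apoe 4 of the 7 met this unadjusted rule (7.54% of all genes). Atp1b2 (-0.97), Aqp4 (-0.58) and Pla2g7 (-0.26) had an unadjusted p above 0.05. With the replicate number as a block the difference for Apoe was -1.53 and the call was lost (adjusted p = 0.117), and with genotype and replicate number as a random block it was -1.45 and the call was kept (adjusted p = 0.0276). The call was lost as well when any library other than FLAG native replicate 2 was left out (adjusted p between 0.0668 and 0.424). In WT libraries 6 of the 7 had lower values after crosslinking (46.9% of all genes), the median difference was -0.56, against 0.02 for all genes, and 0 of the 7 were called lower, beside 0.289% of all genes. There Fabp7 (-1.11) and Apoe (-1.05) were lower at an unadjusted p under 0.05 and a log2 difference past 0.58, as 3.55% of all genes were. Vim was at -0.64, Atp1b2 at -0.56, Glul at -0.47 and Pla2g7 at -0.38, and Aqp4 was at 0.44, or at -0.31 without WT crosslinked replicate 2. With libraries left out in turn, Vim ranged from -0.88 to -0.30, Atp1b2 from -1.01 to -0.12, Glul from -0.74 to -0.19 and Pla2g7 from -0.49 to -0.27. Without FLAG native replicates 1 and 3 the median in FLAG was -0.24, with 5 of the 7 below 0 and values between -1.15 (Apoe) and 0.42 (Aqp4).

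**Figure D4:**
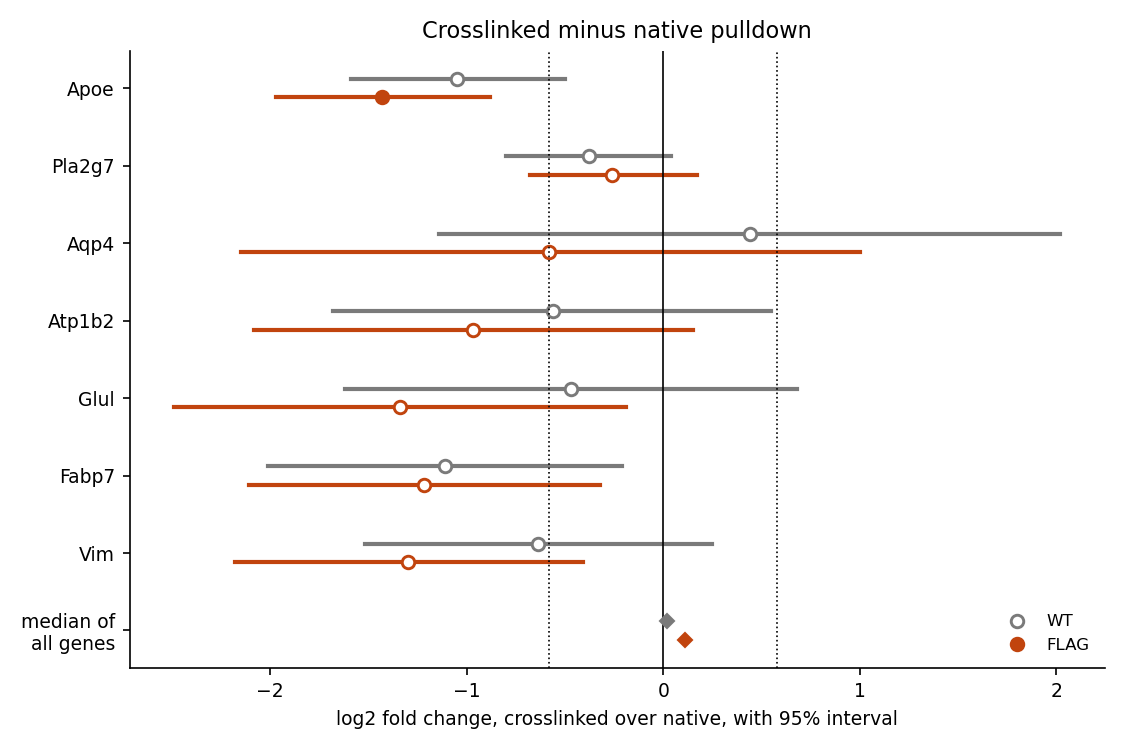
Log2 fold change of crosslinked over native pulldowns (horizontal axis) with its 95% interval for each gene in WT (grey) and FLAG (orange), with a filled point for a called gene, dotted lines at 0.58 in either direction and diamonds for the median of all genes. All FLAG points lie below 0, from -1.43 (Apoe, filled) to -0.26 (Pla2g7), and the WT points do so too except that of Aqp4 at 0.44.

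Levels of different genes were compared per kb of exon. Fabp7 was highest in every group, with a mean log2 value per kb of 6.97 ± 0.25 (SD, n = 3) in native WT and 7.80 ± 0.87 (SD, n = 3) in native FLAG. Vim was second, at 4.87 ± 0.60 and 6.14 ± 0.68 in the same groups. In native WT, Apoe (3.33 ± 0.16), Glul (2.71 ± 0.30), Pla2g7 (2.21 ± 0.16) and Atp1b2 (1.69 ± 0.49) followed, and Aqp4 was lowest at -2.71 ± 0.87. The ranges of Glul and Pla2g7 met there, and those of Pla2g7 and Atp1b2 overlapped. In native FLAG, Glul (4.33 ± 1.11) and Apoe (4.32 ± 0.43) did not differ beyond their spread, and neither did Atp1b2 (3.19 ± 0.95) and Pla2g7 (3.07 ± 0.21). Aqp4 was last there at -0.65 ± 1.06. After crosslinking the mean log2 value per kb in FLAG was 6.59 for Fabp7, 4.84 for Vim, 2.99 for Glul, 2.89 for Apoe, 2.81 for Pla2g7, 2.22 for Atp1b2 and -1.22 for Aqp4, where the ranges of Glul, Apoe and Pla2g7 overlapped. In crosslinked WT it was 5.86 for Fabp7, 4.23 for Vim, 2.29 for Apoe, 2.24 for Glul, 1.83 for Pla2g7, 1.12 for Atp1b2 and -2.27 for Aqp4. The highest and the lowest of the 7 were the same genes in all 4 groups, with Vim next to the highest.

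The genes also share features of structure. Apoe, Fabp7, Atp1b2, Vim and Glul are short genes, of 3080, 3570, 6207, 8900 and 9780 bases, beside a median of 28595 bases for the coding genes of the matrix. Aqp4 (21487 bases) is closer to that median, and Pla2g7 (44104 bases) is longer. Exons make up 69.4% of Apoe, 65.8% of Atp1b2, 53.3% of Vim, 35.0% of Fabp7, 34.0% of Glul and 29.0% of Aqp4, but 6.59% of Pla2g7, where the median was 16.8%. Over all coding genes the change in FLAG pulldowns moved with this share. When these genes were split into 5 equal groups from the lowest to the highest share, the median log2 fold change over all libraries was -0.20, -0.08, 0.01, 0.09 and 0.29. From the lowest to the highest group the median ran from -0.05 to 0.07 in the crosslinked libraries and from -0.31 to 0.41 in the native libraries. Apoe, Atp1b2 and Vim are in the highest group, Aqp4, Glul and Fabp7 in the next, and Pla2g7 in the lowest. After a trend on exonic share had been taken out of every library, the median of the 7 was 0.73, 1.08 and 1.05 in the crosslinked, native and all libraries, Pla2g7 was the one called over all libraries, and the lowest value over all libraries was 0.59 (Apoe). After crosslinking 5 of the 7 then exceeded 0.58, since Apoe was at 0.56 and Vim at 0.57. In that setting the median difference between the protocols was 0.07, against 0.40 as deposited.

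Other astrocyte genes gave a more mixed picture. Of 30 such genes 28 were found, of which 0 were called over all libraries by limma, while 8 were higher and 1 lower at an unadjusted p under 0.05 and a log2 difference past 0.58, beside 7.24% and 5.28% of all genes. Their median log2 fold change was 0.32, against -0.03 for all genes. The 4 with the highest level were not among the higher ones: the sodium bicarbonate cotransporter Slc4a4 had a log2 fold change of -0.63, the glutamate transporter Slc1a3 -0.44, the folate enzyme Aldh1l1 0.06 and the neurotrophin receptor Ntrk2 -0.18. Of 15 other genes of adult neural stem cells and radial glia, 12 were found, 0 were called and 1 was higher by the same unadjusted rule, near the 7.24% of all genes, with a median of 0.26. That one was Dbi, a binding protein of acyl-CoA, at 0.87, and the other abundant genes of the list were Tnc (0.07), Lrig1 (0.11) and Nes (0.52).

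Among 35 relatives and partners of the identity genes 28 were found, with 0 called, 4 higher and 1 lower by the unadjusted rule (7.24% and 5.28% of all genes), and a median log2 fold change of 0.17 over all libraries. The most abundant were Smoc1 (-0.10), Nes, which is on both lists, Pafah1b1 (0.27) and the lipoprotein receptor Lrp1 (0.16). The following were chosen after their values were seen. Beside Atp1b2, the beta subunit Atp1b1 of the same pump had 1.12 (adjusted p = 0.124) and Atp1b3 had -0.05 (adjusted p = 0.759). Beside Fabp7 (0.79), the related Fabp5 had 0.16 (adjusted p = 0.788). Beside Vim, the filament linker Plec had 1.28 (adjusted p = 0.0891). The differences between these relatives and the 7 genes were not tested.

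Of the marker lists of other cells, the endothelial sum moved with the tag in both protocols, and the sums of the single neuroblast and the single ependymal gene found did so after crosslinking. Cldn5 and Cdh5 were not found, and the summed linear value of the 4 of 6 that were was 12.5 to 23.2 in FLAG libraries and 5.32 to 11.7 in WT libraries. Flt1, a receptor for vascular growth factors, was called (log2 fold change 2.23, adjusted p = 0.0468), whereas Pecam1, Kdr and Esam were at -0.58, -1.09 and -0.96. The neuroblast marker, Cd24a, had 1.24 (adjusted p = 0.103), with linear values of 10.7 to 11.5 in FLAG and 5.07 to 5.10 in WT after crosslinking, and of 14.9 to 57.6 in FLAG and 9.87 to 18.5 in WT in native pulldowns. Of 4 neuronal markers found among 5, Rbfox3 was called lower (-1.31, adjusted p = 0.0127), and the sums overlapped (41.7 to 58.9 in FLAG and 44.7 to 65.0 in WT). Microglial sums were 31.9 to 33.9 in FLAG and 28.8 to 36.6 in WT. Oligodendrocyte sums were 24.9 to 44.5 in FLAG and 22.8 to 29.8 in WT over both protocols. Those of the ependymal gene, Foxj1, were 1.49 to 1.56 in FLAG and 1.01 to 1.18 in WT after crosslinking, and 1.42 to 7.12 and 1.70 to 3.40 in native pulldowns. The part of other cells in the values of the identity genes was not tested.

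For the identity genes other than Vim, the gene with the most similar pattern over the 10 libraries was found by Pearson's correlation of log2 values among 14966 genes. These were Gm7964 for Fabp7 (r = 0.995), Elovl5 for Glul (0.987), Cyb5r3 for Apoe (0.984), Gm31763 for Atp1b2 (0.984), Pmaip1 for Aqp4 (0.977) and Gm45016 for Pla2g7 (0.951). The points share libraries and their scaling, and each value is the highest of many. Among the 7 themselves the correlations ran from 0.58 (Apoe and Aqp4) to 0.94 (Atp1b2 and Vim) over the same libraries.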

How the data were processed

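RNA from anti-FLAG pulldowns was measured by RIP-seq in 10 libraries, grouped by the genotype and protocol in the labels. The authors deposited log2 values, 1 per gene and library. The methods state that Cutadapt and Trimmomatic trimmed the reads, HISAT2 aligned them to GRCm38 and featureCounts counted them. For the normalization the authors name DESeq2, while the processing notes name limma. All libraries have nearly the same distribution of values, as quantile normalization gives, so the step that set the scale is unsure. Whole reads could not be recovered, so depth and counting error are unknown.

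The log2 values were used with no pseudocount and no filter. Models were fitted over all genes in limma (version 3.58.1, under R 4.3.3) by lmFit and eBayes with a trend, and p-values were adjusted after Benjamini and Hochberg. They measure the spread between these libraries. The scripts were first tested on simulated data. The members, the gene lists and the rule for named genes were chosen with earlier results of these data known. The rule named the identity genes, Mex3a, from each list any called gene or otherwise the 4 most abundant, and the most similar gene, which for Vim is not reported here. Levels per kb divide by exonic length in GENCODE M21 on GRCm38, which holds 15864 genes of the matrix, 14849 of them with identical ends. The motif was searched as letters.

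Alternatives were pseudocounts of 1 and 8, a minimum mean of 10, quantile normalization, library medians at 0, array weights, replicate blocks, no trend, 1 fit of the 4 groups and each library left out. Removal of trends on exonic share and gene length, omission of FLAG native replicates 1 and 3, crossed numbers, the random block in the comparisons of the protocols and the alternatives for separated groups were chosen after seeing the data. FLAG and WT share replicate numbers, but deviations of same-numbered libraries correlated at -0.43 to -0.15 between them, so they were not taken as pairs. Those of crosslinked and native libraries of 1 genotype and number correlated at 0.15 to 0.39 in 4 pairs, for which the random block was used. Python 3.11.15, numpy 2.4.6, pandas 2.3.3 and matplotlib 3.10.9 were used.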

Additional observations from a re-analysis of the deposited data

How the results depend on the processing

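None of the 7 genes was called in the crosslinked libraries in any of the 16 alternatives, and none for the difference between the protocols in any of the 22. In both comparisons limma called 0 of all genes in the fits reported above, so these counts say nothing about stability. Over the libraries left out in turn, the number called ranged from 0 to 7 in the native libraries, from 0 to 6 over all libraries, from 0 to 5 lower after crosslinking in FLAG, and stayed at 0 in WT, while the number separated ranged from 4 to 7 in native pulldowns and in both protocols. The upper ends came from leaving out FLAG native replicate 2, when 1444 of all genes were called lower after crosslinking in FLAG (63 with it). In that setting 25.1% and 11.9% of all genes were separated in native pulldowns and in both protocols. Leaving out a library cannot undo a separation, so the lower ends of the number separated were fixed in advance. Array weights called 7 in the native libraries (with 1656 and 1921 of all genes higher and lower) and 6 over all libraries (1105 and 964 of all genes). They called 2 lower after crosslinking in WT (425 of all genes lower) and 4 in FLAG (904 of all genes lower). The median log2 fold change of the 7 was then 1.65 in the native libraries (1.27 as reported). Over all libraries it was 0.79 (1.01 as reported), with Glul at 0.70 and Fabp7 at 0.48. Over all libraries, the random block of genotype and number and the omission of FLAG native replicates 1 and 3 each gave 0, with 7 and 8 genes called higher (42 as reported). For crosslinked over native in FLAG, pseudocounts of 1 and 8, a minimum mean of 10, the replicate block, no trend, the trend on gene length and the omission of FLAG native replicates 1 and 3 each gave 0 in place of 1, and in WT the trend on exonic share gave 1 (Apoe) in place of 0. With the replicate number as a block, the count called stayed at 0 in the crosslinked and native libraries, at 1 over all libraries (14 genes higher and 20 lower in all, against 42 and 37) and at 0 in WT. With the numbers crossed in the crosslinked libraries, 0 genes were called. Motif matches within the last 500 bases were counted only in 3' UTRs of at least that length, and 4 of the 7 genes have shorter ones. The 3 genes searched (Aqp4, Atp1b2 and Glul) each had a match there, beside 66.4% of all coding genes searched. The matches of Fabp7 and Vim, in whole 3' UTRs shorter than this, were left out of that count. Of 848 single-gene results over all comparisons and alternatives, 791 kept their status as called or not called. A call was lost in 22 (Pla2g7 over all libraries or Apoe in FLAG) and gained in 35, and none that was called changed direction. Only Pla2g7 over all libraries and Apoe in FLAG were called in the reported fits, and the 848 include both comparisons above without any call. The count of 791 therefore does not measure how stable the fold changes were. Among the 791 is Fabp7 in native pulldowns, which went from 0.83 to -0.12 without FLAG native replicates 1 and 3. The cause of these changes was not tested. Groups of 2 or 3 libraries are too few for a test of single outlying libraries, and with unknown depth the counting error of low values such as those of Aqp4 could not be estimated.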
